A study of Homo sapiens with 8 samples.

Results

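The genes described are 10 that carry the Wnt signal across the plasma membrane or set how much receptor is there: LRP5, LRP6, FZD5, FZD7, RNF43, ZNRF3, LGR4, DKK1, DVL2 and DVL3. Their peaks of N6-methyladenosine (m6A) were taken as every row with one of these symbols in the authors' list of peaks. This gave 23 of 22626 peaks, on 7 of the 10 genes. FZD5, DVL2 and DVL3 had 0 rows and are not analysed here, which says nothing about whether their transcripts are expressed or methylated. RNF43 had been reported with a called peak in earlier work on the same data, and the genes were chosen with that known.

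HCT116, a human colorectal cancer cell line, was studied in 2 arms: cells with a control hairpin (sh_NC, genotype WT in the labels) and cells with a stable ALKBH5 knockdown (sh_AL1). No added treatment is labelled, both arms grew under the same conditions, and sh_AL1 is the only knockdown construct the labels name. ALKBH5 is an enzyme that removes m6A from RNA. Each arm has 2 libraries of fragments pulled down with an anti-m6A antibody (IP) and 2 of the input, 8 libraries in 4 groups. The table holds 1 set of values for the whole series, so the values below come without replicate errors, and library depth is unknown. Of 11 colorectal epithelium markers 6 had a peak (EPCAM, KRT8, KRT18, KRT19, CDH1 and CDX2), against 1 of 6 fibroblast, 0 of 6 leukocyte and 0 of 4 endothelial markers; a listed peak is not a level of expression.

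Wnt proteins bind a Frizzled receptor (FZD) together with the co-receptor LRP5 or LRP6, and the receptor pair recruits dishevelled (DVL), which protects β-catenin from destruction. RNF43 and ZNRF3 are transmembrane ubiquitin ligases that send Frizzled to the lysosome, LGR4 binds R-spondins and so removes these ligases from the membrane, and DKK1 is a secreted protein that blocks LRP5 and LRP6. RNF43, ZNRF3 and DKK1 are themselves known Wnt target genes in many cells, so they form negative feedback. In the intestine this circuit governs the crypt stem cells.

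Stretches of 2 peaks could be read from the RefSeq start windows (GRCh38.p14, from 250 bases before to 50 bases after an annotated start). They are shown because they lie inside the RNF43 peak that was called different between the arms and inside a peak at the very start of LGR4. Capitals mark GGAC, the commonest core of the m6A consensus, searched without regard to the base after it. That base is c in RNF43 and g in LGR4. The full consensus has no g there, so the LGR4 match is to the core only. The strand is that of the transcript, 5′ to 3′.
RNF43 peak 2, chr17:58402690-58402719, minus strand: agcctcatctctgGGACctgaatagacaat
LGR4 peak 1, chr11:27472748-27472777, minus strand: ctagaagggaaaaGGACgggaagagattga
GGAC was the motif searched, on both strands, with no second motif overlapping it. The 40 bases of RNF43 peak 2 in a start window held it 1 time on the transcript strand and 0 times on the other; at the same distance from the start, 15.3% of 35116 annotated start windows held it on the transcript strand and 13.9% on the other. The 50 bases of LGR4 peak 1 held it 1 and 0 times, against 18.9% and 17.6% of the windows. In the 111 bases of RNF43 peak 1 it occurred 0 times on the transcript strand and 1 time on the other, against 35.2% and 33.7%. These matches are letters in a window and not measured methylation sites. The remaining bases of these peaks, and all bases of the other 20 peaks, were not searched.

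The central comparison asks which of these peaks differed between ALKBH5 knockdown and control cells. Peaks are named called when the false discovery rate (FDR) that the authors computed is under 0.05. The table does not say which arm is the numerator, so folds are given as positive or negative and neither sign is taken to mean more or less m6A after knockdown. No source used here says whether RNA level was divided out of the fold, so a difference in m6A and one in RNA level cannot be told apart. Nothing in the labels shows that the 2 libraries of a group came from separate cultures, and no source says how the spread between them entered the authors' p.

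DKK1 and RNF43 carried the called peaks, 1 each, DKK1 with a positive and RNF43 with a negative fold. The authors' deposited table gives the DKK1 peak a log2 fold of 0.44, a 1.36-fold ratio, with FDR 1.9e-10. For RNF43 peak 2 the authors' deposited table gives a log2 fold of -1.15, a ratio of 0.451, with FDR 0.0081. Thus 2 of 23 peaks were called (8.70%), against 8.23% of all peaks (positive 5.74%, negative 2.49%), a share near the background. The other 21 peaks had FDRs from 0.27 to 0.69 per the authors' deposited table, and 0 of these 21 had an unadjusted p under 0.05 there. At that unadjusted threshold the same 2 of 23 passed, against 19.9% of all peaks.

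**Figure D1:**
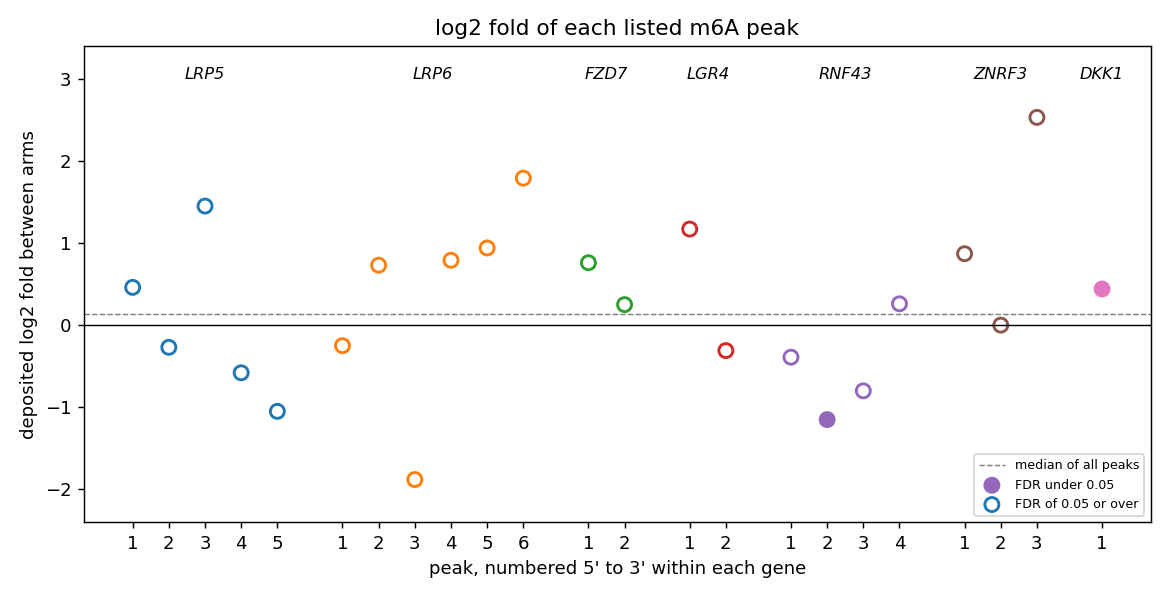
The vertical axis is the deposited log2 fold between the arms, and each circle is 1 peak, numbered 5′ to 3′ along its transcript; filled circles have an FDR under 0.05. RNF43 peak 2 at -1.15 and the DKK1 peak at 0.44 are filled, and open circles reach 2.53 (ZNRF3 peak 3) and -1.88 (LRP6 peak 3).

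The folds of the 23 peaks ran in both directions: 13 were positive, 9 negative and 1 was 0. Positive folds made up 56.5% of them and 55.3% of all peaks. Their median log2 fold was 0.26 per the authors' deposited table, against 0.14 for all peaks. A log2 fold of at least 1 in either direction occurred in 7 of 23 (30.4%) and in 33.4% of all peaks. In direction and size the 23 peaks therefore stood close to the whole list.

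The called peaks were among those with the strongest support as peaks. The authors' p of a peak, unlike the p of the difference, is taken here as the evidence that IP exceeds input. It is not the size of that excess, which is the enrichment. Below a log10 peak p of -100 lay 4 of the 23 (LRP6 peak 1, RNF43 peaks 1 and 2, and DKK1), and 2 of these 4 were called, against 28.1% of the 1966 such peaks in the whole list. Of the 9 between -100 and -10, 0 were called, against 12.3% of 8087, and of the 10 at -10 or above 0 were called, against 2.48% of 12573. The median absolute log2 fold of the 23 peaks in these classes was 0.42, 0.58 and 0.96 per the authors' deposited table; over all peaks it was 0.35, 0.56 and 0.82. Larger folds without a call were thus found on weaker peaks, in these genes as in the list as a whole.

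**Figure D2:**
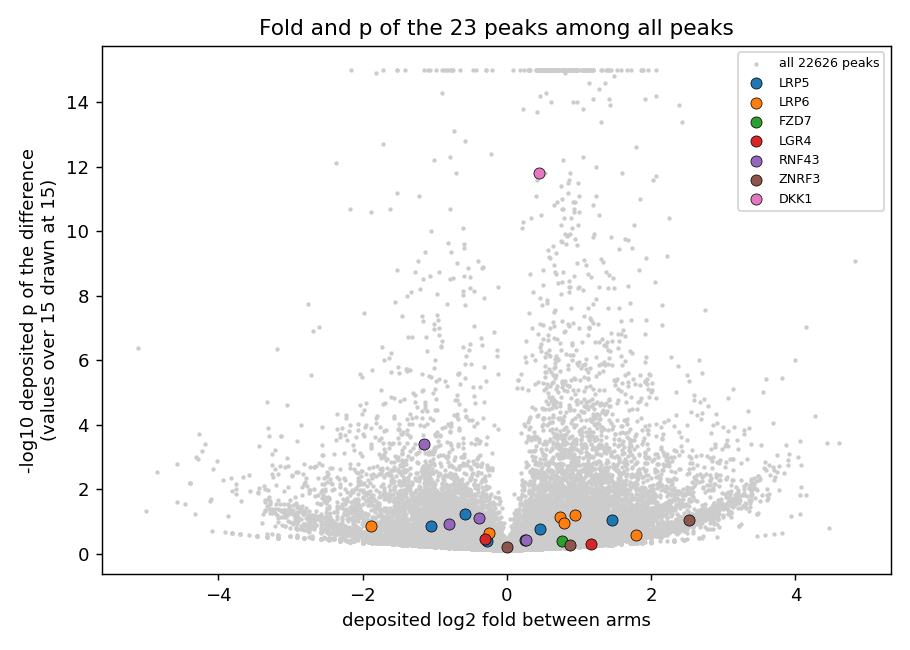
The horizontal axis is the deposited log2 fold and the vertical axis the negative log10 of its p; grey points are all 22626 peaks and coloured points the 23 peaks by gene. DKK1 stands high at a log2 fold of 0.44, RNF43 peak 2 is the next, and the other 21 lie near the base, with ZNRF3 peak 3 at 2.53 farthest to the right.

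Of the secreted antagonists, DKK1 had a single peak, which covered much of the 3′ part of its short transcript. It lies on chromosome 10 at 52316295 to 52317272 (GRCh38), in exon blocks of 141 and 719 bases separated by 118 bases, and ends 385 bases before the annotated 3′ end of the gene. Its log10 peak p was -1550 per the authors' deposited table, rank 65 of 22626. Its enrichment, 8.74-fold per the authors' deposited table, was below the median of all peaks (10.1-fold), so the peak was exceptional in support and ordinary in enrichment. By the p of the difference (1.6e-12 per the authors' deposited table) it ranked 173. Its log2 fold of 0.44 per the authors' deposited table compares with a median absolute log2 fold of 0.35 among the 1966 peaks with a log10 peak p below -100.

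Of the ubiquitin ligases, RNF43 had 4 peaks, 2 at each end of the gene. RNF43 peak 1 covers 58416755 to 58417595 on chromosome 17 and reaches 61 bases upstream of the annotated start. The authors' deposited table gives it an enrichment of 18.5-fold and a log2 fold of -0.39 (FDR 0.33). RNF43 peak 2, the called one, joins an 830-base block at 58415326 to 58416155 with a 40-base block at 58402682 to 58402721, across a gap of 12604 bases. The 5′ edge of the short block coincides with a further annotated RNF43 start, at 58402721, and this is where the first sequence above lies. Its enrichment of 54.6-fold per the authors' deposited table was the highest of the 23, above 98.7% of all peaks.

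The RNF43 peaks near the 3′ end, numbers 3 and 4, are centred 5781 and 5256 bases from it. RNF43 peak 3 (58358041 to 58358521) had an enrichment of 29.8-fold and a log2 fold of -0.80 (FDR 0.40) per the authors' deposited table. RNF43 peak 4 (58357531 to 58357981) had 2.92-fold and 0.26 (FDR 0.63) per the authors' deposited table. Of the 4 RNF43 peaks 3 thus had negative folds, with 1 called. Whether the folds of peaks within RNF43 differ from each other was not tested.

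All 4 RNF43 peaks are also listed under a second gene model on the same strand, ENSG00000285897, which has no symbol in the file. It shares 830 of the 870 bases of RNF43 peak 2, where the authors' deposited table gives it a log2 fold of -1.10 (FDR 0.013). At RNF43 peak 4 the same model shares 359 bases and has a log2 fold of -0.05 (FDR 0.67) per the authors' deposited table, so the sign there turns with the gene model. An antisense gene, TSPOAP1-AS1, has a peak on the opposite strand that shares 301 bases with RNF43 peak 2. The authors' deposited table gives that TSPOAP1-AS1 peak a log2 fold of -0.12 (FDR 0.67) and an enrichment of 41.1-fold. No source used here says how reads were divided among overlapping models or whether strand was used, so the assignment of this signal to RNF43 is uncertain.

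ZNRF3, the paralogue of RNF43, had 3 peaks toward the 3′ end of its long gene, with their middle bases from 95.3% to 96.2% of the way along it. These bases lie 8133, 7609 and 6664 bases from the annotated 3′ end. ZNRF3 peak 3, in 2 blocks between 29050449 and 29053829 on chromosome 22, had the largest fold of the 23. The authors' deposited table gives it a log2 fold of 2.53, a 5.78-fold ratio, with p 0.087 and FDR 0.34. ZNRF3 peaks 1 and 2 had log2 folds of 0.87 (FDR 0.67) and 0 (FDR 0.69) per the authors' deposited table. The enrichments were 28.1, 10.5 and 29.3-fold for peaks 1 to 3 per the authors' deposited table. No ZNRF3 peak was called, and a fold of this size on a peak with a log10 p of -8.69 was not distinguishable from 0 by the authors' test. The largest folds of RNF43 and ZNRF3 had opposite signs, and whether the genes differ was not tested.

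LGR4, the R-spondin receptor that counteracts these ligases, had 2 peaks at opposite ends. LGR4 peak 1 (27472640 to 27472790 on chromosome 11) begins exactly at the annotated start, and it holds the second sequence above. It was the least supported of the 23, with a log10 peak p of -2.93 per the authors' deposited table. Its log2 fold was 1.17 (FDR 0.67) per the authors' deposited table. The annotation places the antisense gene LGR4-AS1 over the same bases. LGR4 peak 2 (27367669 to 27368688) was the longest of the 23, at 1020 bases, and ended 1708 bases before the 3′ end. The authors' deposited table gives it an enrichment of 46.1-fold, above 98.0% of all peaks, and a log2 fold of -0.31 (FDR 0.62).

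FZD7, a Frizzled receptor gene, had 2 peaks, both with positive folds and neither called. FZD7 peak 2 (202036163 to 202036912 on chromosome 2) was the stronger, with a log10 peak p of -62.7 and an enrichment of 18.7-fold per the authors' deposited table. Its log2 fold was 0.25 (FDR 0.63) per the authors' deposited table. FZD7 peak 1 (202034994 to 202035144) had a log10 peak p of -4.86, an enrichment of 2.92-fold and a log2 fold of 0.76 (FDR 0.64) per the authors' deposited table.

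The co-receptor genes LRP5 and LRP6 held 11 of the 23 peaks. Of the 11, 0 were called, against 8.23% of all peaks, and with so few peaks this count is not read as a result. LRP6 had 6 peaks, a number reached by 2.34% of named symbols, and LRP5 had 5, reached by 4.83%. LRP6 peak 1 was the second strongest of the 23 by peak p (log10 -452 per the authors' deposited table). It joins 4 exon blocks between 12187026 and 12266834 on chromosome 12, 840 bases in all with 79561 bases between the outer blocks, and its 5′ edge lies 210 bases from the annotated start. Its enrichment was 37.4-fold and its log2 fold -0.25 (FDR 0.54) per the authors' deposited table. The strongest LRP6 peak therefore had the smallest fold of the 6.

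The other LRP6 peaks had folds of both signs. LRP6 peaks 2, 4, 5 and 6 had log2 folds of 0.73, 0.79, 0.94 and 1.79, and LRP6 peak 3 had -1.88, per the authors' deposited table. Their FDRs ran from 0.28 to 0.56 per the authors' deposited table. From lowest to highest the LRP6 folds spanned 3.67 on the log2 scale, where the median span of the 124 symbols with 6 peaks was 2.55 and 82.3% of them had a smaller one. LRP6 peak 6 (12118992 to 12119231), the 3′-most, rests on a log10 peak p of -7.34 and LRP6 peak 3 (12165108 to 12179892) on -10.7 per the authors' deposited table, so the extreme folds of LRP6 came from peaks with far less support than peak 1.

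LRP5 showed a similar mixture, with 2 positive and 3 negative folds. LRP5 peak 4 (68413699 to 68416373 on chromosome 11) was its strongest, with a log10 peak p of -67.9 and an enrichment of 12.9-fold per the authors' deposited table. Its log2 fold of -0.58 had p 0.058 and FDR 0.27 per the authors' deposited table, the smallest p among the 21 uncalled peaks. LRP5 peaks 1, 2 and 3 had log2 folds of 0.46, -0.27 and 1.45 per the authors' deposited table. LRP5 peak 5 (68447116 to 68449215) ends 60 bases before the annotated 3′ end and had -1.05 (FDR 0.44) per the authors' deposited table. The span of the LRP5 folds, 2.50, was close to the median of 2.36 over the 271 symbols with 5 peaks.

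**Figure D3:**
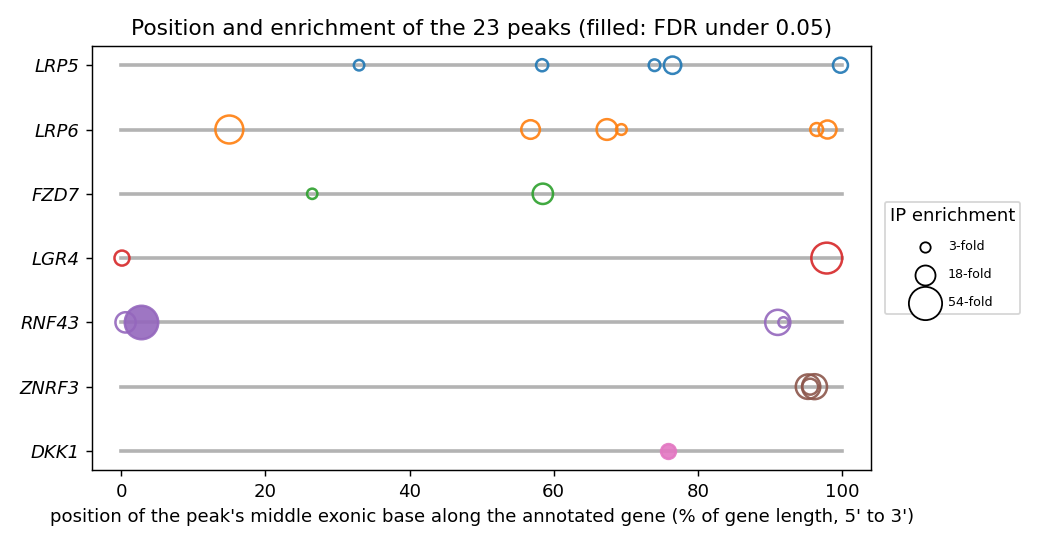
Each line is 1 gene drawn from its annotated 5′ end (0) to its 3′ end (100, % of gene length), each circle is placed at the middle exonic base of a peak, circle area grows with enrichment, and filled circles have an FDR under 0.05. RNF43 and LGR4 have peaks at both ends, the 3 ZNRF3 peaks lie between 95.3 and 96.2, and the filled RNF43 circle is the largest.

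Few of these peaks lay at the very 3′ end. The middle base of 2 of 23 (LRP5 peak 5 and DKK1) was within 1000 bases of the annotated 3′ end (8.70%), against 22.1% of the 20398 peaks placed in an annotated gene. At the 5′ end, 2 of 23 (RNF43 peak 1 and LGR4 peak 1) lay within 1000 bases, against 9.55%. Distances are genomic and include introns. More than 1 exon block was spanned by 12 of 23 peaks (52.2%), against 30.4% of all, and the median exonic length was 449 bases against 300. These shares are descriptions of 23 peaks on 7 genes, which are not independent of each other.

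The median enrichment of the 23 peaks was 12.9-fold per the authors' deposited table, against 10.1-fold for all peaks, and it ranged from 2.92 to 54.6-fold. LRP6 peak 1, LGR4 peak 2 and ZNRF3 peaks 1 and 3 stood at or near the highest enrichment that peaks of like support reached. Among the 34 peaks whose log10 p was within 5% of that of LRP6 peak 1, the highest enrichment was its own, 37.4-fold. Of these 94.1% were less enriched, so LRP6 peak 1 was not alone at that value. For the others the highest was 48.4-fold for LGR4 peak 2 (itself 46.1), 29.3-fold for ZNRF3 peak 1 (28.1) and 30.4-fold for ZNRF3 peak 3 (29.3) per the authors' deposited table. For RNF43 peak 2 like peaks reached 134-fold per the authors' deposited table, and 95.3% of them were less enriched than it, against 95.8% for LGR4 peak 2 and 87.9% and 91.5% for ZNRF3 peaks 1 and 3.

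**Figure D4:**
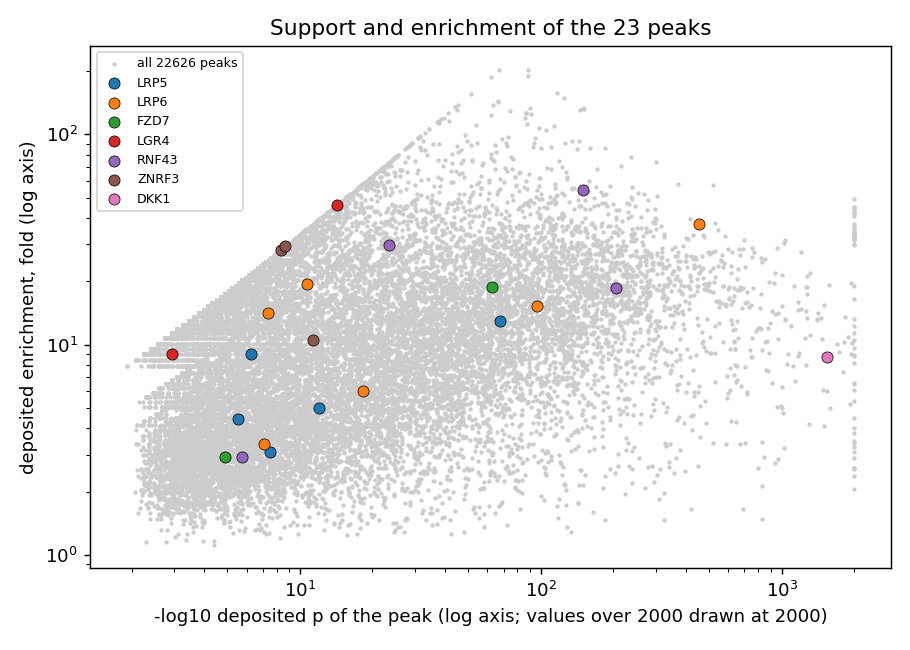
The horizontal axis is the negative log10 of the peak p and the vertical axis the enrichment, both on log axes; grey points are all peaks and coloured points the 23. LGR4 peak 2 (46.1-fold) and ZNRF3 peaks 1 and 3 (28.1 and 29.3-fold) lie along the sloping upper edge at the left of the cloud, and DKK1 (8.74-fold) lies far to the right.

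The rest of the pathway was described through 7 lists, 147 genes in all, of which 100 had a peak. Of their 235 peaks 21 were called (8.94%), 17 positive and 4 negative, again near the 8.23% of all peaks. With the folds recentred on the median of all peaks, 21 were called as well, 13 positive and 8 negative. The whole list shifted the same way, from 5.74% positive and 2.49% negative as deposited to 4.13% and 3.66%. The counts were 0 of 14 peaks on 11 genes of Wnt ligands and their secretion, 0 of 27 on 12 genes of other receptors and co-receptors, and 0 of 4 on 3 antagonist genes. These lists are small, and many ligand and receptor peaks had a log10 peak p of -10 or above. In that class 2.48% of all peaks were called. Whether these lists differ from the others was not tested. At an unadjusted p under 0.05 the counts in these lists were 2, 2 and 0. The median log2 folds were 0.10, -0.16 and 0.23 per the authors' deposited table. FZD3, another Frizzled gene, had the smallest FDR of the receptor list, 0.12 at a log2 fold of 1.83 per the authors' deposited table. The smallest FDR of the ligand list, 0.21, was shared at this rounding by peaks of opposite sign. They were on the secretion factor gene WLS at 0.89 and the ligand gene WNT4 at -1.08 per the authors' deposited table.

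The other 4 lists held the calls, at shares from 5.41% to 19.4% of their peaks. Of all peaks 8.23% were called, 5.74% positive and 2.49% negative. With the folds recentred, the shares of all peaks were 4.13% positive and 3.66% negative. Each value given for a call in these lists is that of 1 peak, and most of these genes also had uncalled peaks. Among dishevelled and signalosome factors 2 of 37 peaks were called (5.41%), both positive. They were ATP6AP2, an adaptor between LRP6 and the proton pump, at 1.38 (FDR 0.014), and the clathrin adaptor gene AP2M1 at 0.98 (FDR 0.036) per the authors' deposited table. The AP2M1 peak was weak, with a log10 peak p of -4.74 and an enrichment of 1.55-fold. The dishevelled gene with listed peaks, DVL1, had log2 folds of -0.21 and 0.40 with FDRs of 0.57 and 0.46 per the authors' deposited table. In the destruction complex list 8 of 79 peaks were called (10.1%), all 8 positive as deposited. With the folds recentred, 6 positive and 3 negative (CUL1, CSNK1G2 and CSNK1E) were called. The 8 called as deposited included CSNK1D, a casein kinase, at 0.86 (FDR 2.8e-07), and the kinase gene GSK3B at 0.92 (FDR 0.0065) per the authors' deposited table. The phosphatase gene PPP2CA stood at 1.18 (FDR 0.011) and the deubiquitinase gene USP34 at 2.23 (FDR 0.022) per the authors' deposited table. HUWE1, a ubiquitin ligase gene, stood at 0.95 (FDR 0.019) and CSNK2A1 at 0.62 (FDR 0.038) per the authors' deposited table. The remaining called peaks of that list were on CTNNB1 and CSNK1A1, at 0.95 and 1.22 per the authors' deposited table.

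TCF factors and co-activators had 5 of 43 peaks called (11.6%), 2 positive and 3 negative, or 1 and 4 with the folds recentred. The negative ones were PYGO2 at -2.85 (FDR 0.0028), BCL9L at -1.31 (FDR 0.0018) and the co-repressor gene TLE1 at -1.30 (FDR 0.010) per the authors' deposited table. Each is the value of 1 peak, and the PYGO2 one had a log10 peak p of only -5.01. Other peaks of these genes were not called as deposited. Their log2 folds were 1.08 and 0.35 for PYGO2, 0.27, -0.27 and 0.29 for BCL9L, and 0.50 and 0.40 for TLE1. PYGO2 and BCL9L encode parts of the complex that links β-catenin to transcription. The positive ones were TCF7L2 at 1.14 and CREBBP at 0.99 per the authors' deposited table. The called TCF7L2 peak had an enrichment of only 1.87-fold and a log10 peak p of -8.51. Uncalled peaks ran from -1.13 to 0.33 for TCF7L2 and from -0.40 to 0.78 for CREBBP. Of 31 peaks on genes of receptor ubiquitination and trafficking 6 were called (19.4%), 5 positive and 1 negative. AP2B1, a clathrin adaptor gene, stood at 1.71 (FDR 2.8e-05), the ubiquitin ligase gene ITCH at 0.86 (FDR 5.4e-06) and the deubiquitinase gene USP9X at 1.66 (FDR 0.0026) per the authors' deposited table. VPS35 stood at 1.70 and RAB5A at -2.60 and 3.13 per the authors' deposited table. The lists were written with earlier results of these data known, and their counts carry no test.

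**Figure D5:**
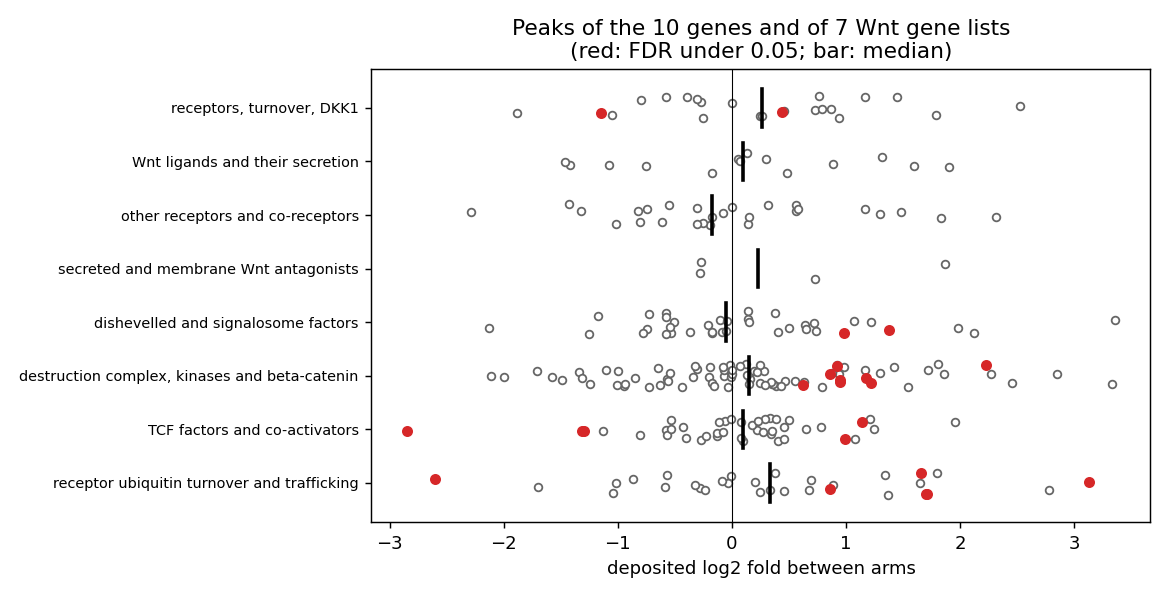
The horizontal axis is the deposited log2 fold, each point is 1 peak of the genes named at the left (spread vertically only for display), red points have an FDR under 0.05, and bars are medians. The ligand, receptor and antagonist lists have 0 red points among 14, 27 and 4 peaks, and differences between lists were not tested. The 8 red points of the destruction complex list are to the right of 0 as deposited. With the folds recentred, which is not drawn, 6 calls of that list are positive and 3 negative.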

How the data were processed

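The authors mapped the reads and made the table. Tools named in the submitters' processing notes are BWA 0.7.12 and HOMER 4.9.1, the build is GRCh38, and the notes assign no step to either tool. No source used here names the peak caller, and the labels name more than 1 anti-m6A antibody. Per the file headers, the authors deposited for each peak a p-value, its log10 as a score, and a fold enrichment (a linear ratio taken here as IP relative to input). They also deposited the log2 fold between the arms, with log10 scores of its p and FDR. Linear p and FDR were computed from these.

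Peaks were numbered 5′ to 3′ within a gene. Coordinates are 1-based. Gene bounds and start windows are from RefSeq (GRCh38.p14), matched by symbol: 10 of 10 genes had bounds and 7 a start window, and these windows overlapped 3 peaks. Recentring the folds needed a standard error for each peak. Where p was under 0.3 this error came from fold and p, read as one-sided, for 11573 of 22626 peaks. The remaining peaks were given an estimate based on length, enrichment and peak p. The step was tested on simulated data only. No source used here says whether the deposited p is one-sided, and simulated data cannot show it. Nor can they show how close the estimates are for the deposited peaks. Analysis used Python 3.11.15, pandas 2.3.3 and scipy 1.17.1. The genes and lists were chosen with earlier results of these data known. Named genes are all peaks of the 10 genes, called peaks of the 7 lists and genes sharing a locus. FZD3, WLS, WNT4, DVL1, CUL1, CSNK1G2 and CSNK1E were added after their values were seen. No test across libraries was run, since values per library were not analysed here.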

Additional observations from a re-analysis of the deposited data

How the results depend on the processing

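The count of called peaks was 2 of the peaks tested under every setting tried: an FDR of 0.01, an unadjusted p of 0.05, p doubled (up to 1) and adjusted again, folds recentred on the median of all peaks (0.14), each locus once, overlapping peaks of the same gene merged, peaks with p under 1e-10, and peaks with an enrichment of at least 4-fold. DKK1 and RNF43 peak 2 were called in each. The overlapping entry of RNF43 peak 2 under ENSG00000285897 has an FDR of 0.013, which does not pass 0.01. The shares of all peaks called under these settings were 4.95%, 19.9%, 6.36%, 7.78%, 8.32%, 8.24%, 19.3% and 5.81%. Not all of the settings were able to remove a call. An unadjusted p of 0.05 is looser than the main threshold, and the locus and merging settings kept the deposited FDR. Both called peaks have a log10 peak p below -100, so the filter on peak p kept them. The median log2 fold of the 23 peaks, 0.26, depended on which were kept: it was -0.25 with 1 peak per gene, -0.27 with peak p under 1e-10 and 0 with an enrichment of at least 4-fold, so no direction is read from it. The median enrichment was 18.5-fold with 1 peak per gene. Within 500 bases of the 3′ end lay 1 peak. Of the 21 called peaks in the Wnt lists, 18 passed with p doubled (AP2M1, CSNK2A1 and CREBBP did not) and 17 with folds recentred (the same 3 and HUWE1 did not). Recentring also added 4 calls, on CUL1, CSNK1G2, CSNK1E and a second BCL9L peak, all with negative folds. Thus 17 positive and 4 negative calls became 13 and 8. The whole list moved the same way, from 5.74% positive and 2.49% negative to 4.13% and 3.66%. Leaving out a library was not run, since it needs values per library. No paired analysis was possible because the table has no column per library.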

Other observations

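Identical enrichments recurred in the list. LRP5 peak 5 and LGR4 peak 1 were both listed at 9-fold per the authors' deposited table, a value shared by 302 peaks. ZNRF3 peak 1 shared its 28.1-fold with 60 peaks and ZNRF3 peak 3 its 29.3-fold with 47, counted with the peak itself. The value for the DKK1 peak (8.74-fold) was shared by 4 peaks and that for RNF43 peak 2 (54.6-fold) by 6. Read counts behind these ratios were not analysed here.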
